A study of Mus musculus with 8 samples.

Results

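The cell cycle genes described here are 40 genes fixed by name, from the cyclins and kinases of G1 through the replication genes of S phase to the genes of G2 and mitosis. A gene was read by the brightest of its probesets, the sets of short probes that read 1 transcript, and 39 of the 40 genes had one of the 18193 genes measured. Ccnb1, which encodes cyclin B1, had no probeset listed with it and was not analysed here. The hearts came from male mice of the mixed strain C57B/6Jx129Sv, 10 to 12 weeks old by the labels and fed ad lib, and neither genotype was stressed or treated. Each of 4 wild type (WT) and 4 SRC-2 knockout (KO) hearts was put on its own Affymetrix Mouse 430 2.0 array. SRC-2 is steroid receptor coactivator-2, a partner of nuclear receptors encoded by Ncoa2, and per the methods the KO mice and their WT controls were littermates. The KO is a germline one per the study, so that every cell type of the animal carries it.

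Cells pass through the cycle under kinases that act only with a cyclin bound to them. Cyclins D and E with CDK4 and CDK2 drive G1 toward S phase, the CDK inhibitors of the Cip/Kip family hold that step back, and release of E2F factors turns on the genes of DNA replication. Cyclins A and B with CDK1 then drive mitosis, and the genes of G2 and M phase are transcribed late in the cycle through promoter elements named CCAAT boxes and the cell cycle genes homology region (CHR). Most cardiomyocytes of the adult mouse heart have left the cycle, and the dividing cells of an adult heart are mainly endothelial cells, fibroblasts and blood-derived cells. An array of a whole heart reads the RNA of all of these together, and fewer cells of a type and less RNA per cell cannot be told apart.

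Ncoa2 fell in the SRC-2 KO hearts, from a signal of 1934 ± 230.5 (SD, n = 4) in WT to 249.8 ± 16.2 (SD, n = 4) in KO (log2 fold change -2.95, limma adjusted p = 5.9e-04). The deposited values are signals on a linear scale, and a signal under 50, which 36.9% to 40.7% of the probesets gave on each array, is taken here as near background. The labelled tissue was borne out by the cardiomyocyte markers, whose summed signal lay between 454007 and 598422 in WT and between 533159 and 678840 in KO hearts. Atrial myocyte markers differed more between hearts, with sums from 157791 to 262184 in WT and from 18030 to 197500 in KO hearts. The labels give the mice as separate samples of a genotype, and the p-values measure the spread between these samples.

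Of the 39 genes, 37 had a mean signal over 50, against 72.7% of all genes measured. The exceptions were Tyms, the thymidylate synthase that makes dTMP for DNA, with a mean signal of 21.1, and Bub1, a kinase of the spindle checkpoint, with 31.2. Just above the limit lay Bub1b at 57.2 and Aurkb at 65.8. By their mean signal the cell cycle genes were thus readable in these unstressed adult hearts, except for Tyms and Bub1, which lay near background. Single hearts of other genes also lay under 50. Among them were KO replicate 3 for Cdk1 (8.27), Ccna2 (36.0), Ccnb2 (27.3) and Prc1 (22.2), and KO replicate 1 for Birc5 (2.74). Bub1b lay under 50 in WT replicates 2 and 3 (28.1 and 44.8) and in KO replicates 1 to 3 (31.6, 19.3 and 28.7), so most of its hearts were near background. Kif11 and Foxm1 also had hearts of both genotypes under 50.

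None of the 39 genes passed at an adjusted p under 0.05 in limma, where p-values were adjusted over all 18193 genes. By the common-variance fit, which draws the spread of each gene toward 1 value, 0.0055% of all genes passed as higher and 0.0165% as lower in KO hearts. In the trended fit, which draws it toward the spread of genes of similar signal, 0.121% passed as higher and 0.258% as lower, and again 0 of the 39 did. At an unadjusted p under 0.05, 2 of the 39 were lower and 0 higher in the common-variance fit, where 6.12% of all genes were lower and 3.95% higher. In the trended fit 6 of the 39 were lower and 0 higher, against 7.28% and 5.36% of all genes. The 6 were Cdkn1c, Mcm2, Mcm7, Ccna2, Ccnb2 and Bub1, and their unadjusted p-values do not hold after adjustment. Without KO replicate 4, a heart that stood apart from the other KO hearts in the G2 and M phase genes, these counts were 10 lower in the common-variance fit and 14 lower in the trended fit, against 7.74% and 8.88% of all genes, and 0 were higher, against 4.41% and 6.32%. KO replicate 4 was singled out by the values of these same genes, so the counts without it are a description and not a test. Leaving out some other hearts lowered the trended count, to 2 without KO replicate 3 and to 3 without KO replicate 2 or WT replicate 4.

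The fold changes nevertheless lay mostly on one side. Of the 39 genes, 34 had a lower mean log2 signal in KO than in WT hearts, against 53.0% of all genes, and their median log2 fold change was -0.36, against -0.03 over all genes. By role, 6 of 7 G1 cyclins and kinases (median -0.15), 3 of 3 CDK inhibitors (median -0.25), 9 of 10 S phase genes (median -0.23) and 16 of 17 G2 and M phase genes (median -0.77) had lower values, and neither of the 2 G1/S transcription factors did (median 0.15). Genes of a cycle phase vary together from heart to heart, so these counts describe 8 hearts and are not a test. The 4 KO values lay wholly below the 4 WT values for 2 of the 39 genes, Cdkn1c and Mcm2, against 3.72% of all genes, and wholly above for 0, against 3.1%.

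**Figure D1:**
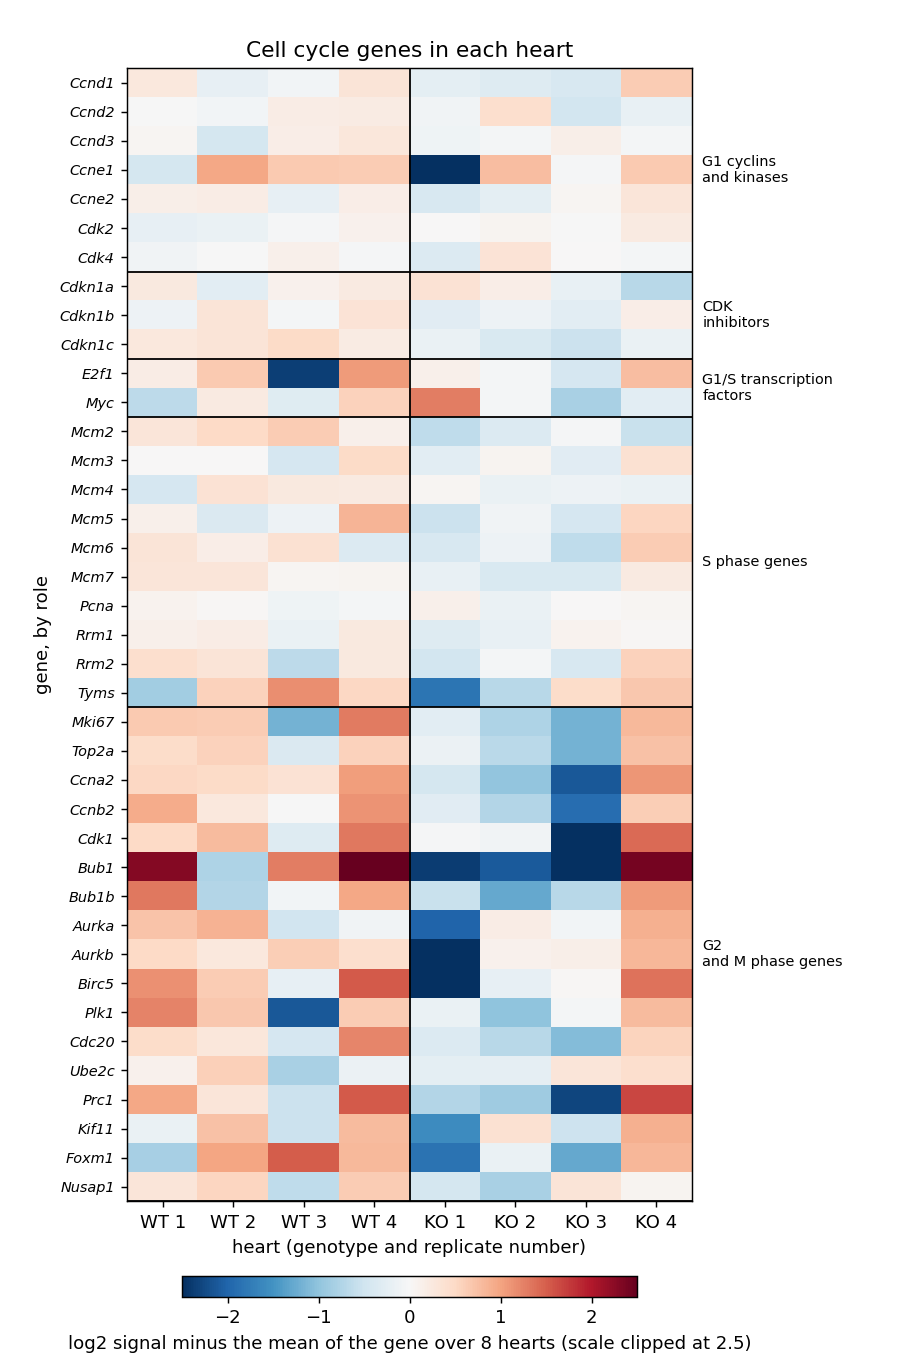
Heat map of the 39 cell cycle genes (rows, by role) in the 4 WT and 4 KO hearts (columns), with colour giving log2 signal minus the mean of the gene over the 8 hearts. The G1 genes are mostly pale, with Ccne1 in KO replicate 1 as an exception, while most G2 and M phase genes are red in KO replicate 4 and many of them blue in KO replicates 1 to 3.

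**Figure D2:**
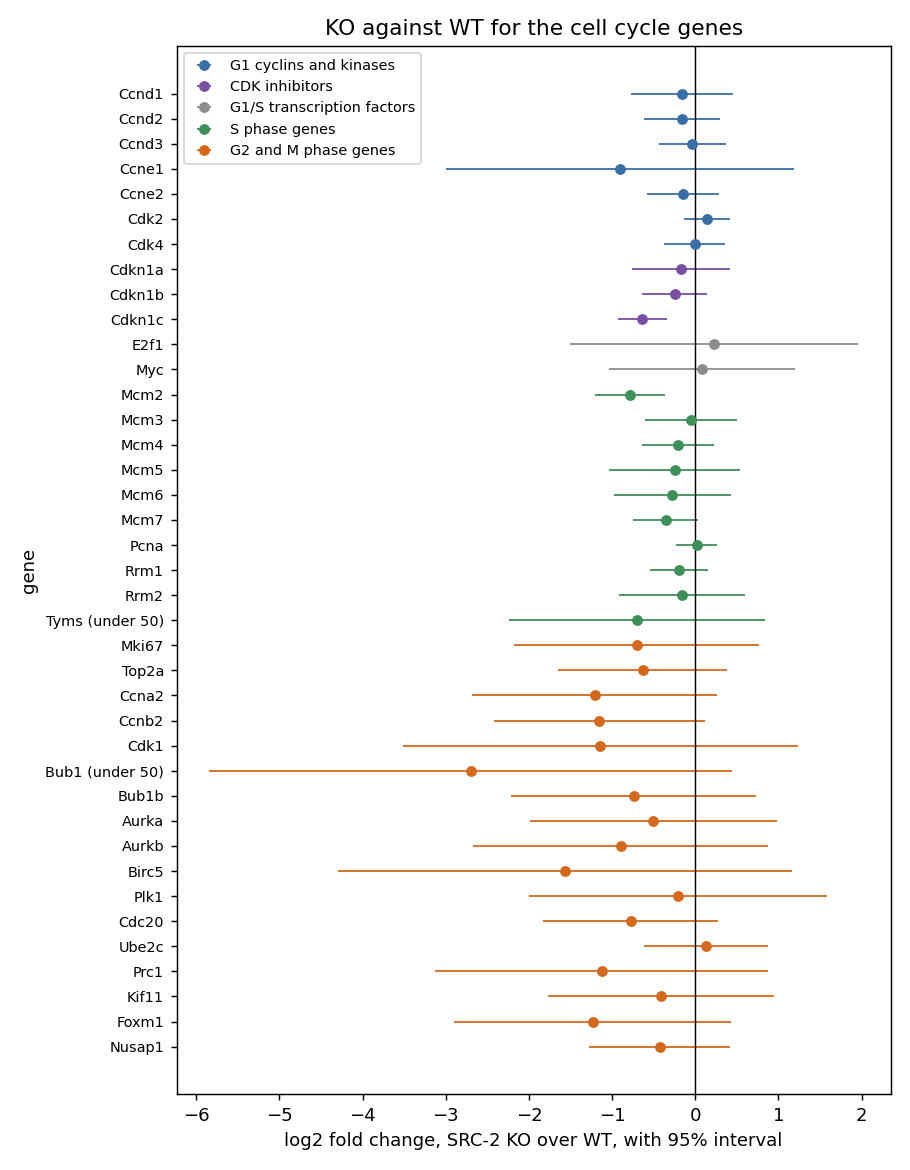
Log2 fold change of KO over WT for each gene (points, coloured by role) with its 95% interval from the common-variance fit (bars). The intervals of Cdkn1c and Mcm2 lie wholly below 0 and those of the other 37 genes include 0, the widest being that of Bub1 from -5.84 to 0.45.

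The D cyclins carry growth signals into the cycle by activating CDK4 and CDK6. Ccnd1 had signals of 2722, 1966, 2163 and 2835 in WT replicates 1 to 4 and of 1908, 1807, 1725 and 3528 in KO replicates 1 to 4. The first 3 KO hearts lay below every WT heart and KO replicate 4 above every one, so the groups overlapped (log2 fold change -0.16, 95% interval -0.78 to 0.45). The 3 probesets of Ccnd1 did not share a direction, with log2 fold changes of -0.41 for the dimmest, -0.16 for the brightest and 0.32 for the remaining one, and none of them separated the genotypes (exact permutation p = 0.114, 0.629 and 0.343, two-sided, with 0.0286 the smallest that 4 hearts against 4 allow).

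Ccnd2 ranged from 6218 to 7482 in WT and from 4736 to 8630 in KO hearts (log2 fold change -0.16, SE 0.19). All 7 of its probesets had values under 0, from -0.44 to -0.16. Ccnd3 was 1014 ± 203 in WT and 975 ± 75.1 in KO hearts (SD, n = 4), a difference smaller than the spread of either group. The kinases of this step were close to level as well: Cdk4 was 900 ± 58.7 in WT and 906 ± 177 in KO hearts (95% interval of the log2 fold change -0.38 to 0.36), and Cdk2 was 349 ± 35.0 and 384 ± 29.0 (log2 fold change 0.14, 95% interval -0.13 to 0.41).

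Cyclin E activates CDK2 at the entry to S phase. Ccne2 lay between 171 and 223 in WT and between 149 and 243 in KO hearts. Ccne1 was dimmer, with 48.5, 127, 103 and 101 in WT and 7.12, 112, 63.9 and 103 in KO hearts, so its log2 fold change of -0.91 rests on KO replicate 1, without which it was 0.011. Its other probeset had a mean signal of 28.8, under the limit, but 114 in KO replicate 1, the heart where the brighter one was lowest, and its log2 fold change was 0.61 (exact permutation p = 0.6). The direction of Ccne1 is therefore uncertain.

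Cdkn1c, a CDK inhibitor, had the smallest p of the 39 genes in both fits. It encodes p57, an imprinted inhibitor that is strongly expressed in tissues as they leave the cycle. Its signals were 764, 793, 879 and 732 in WT replicates 1 to 4 and 565, 484, 437 and 562 in KO replicates 1 to 4. Every KO heart lay below every WT heart, with KO replicate 4 among the rest of its group. The log2 fold change was -0.63 (SE 0.13, 95% interval -0.93 to -0.33), with adjusted p = 0.295 by the common-variance limma fit and 0.0583 by the trended fit. Over the leave-one-out fits its log2 fold change stayed between -0.68 and -0.56. In the trended fit it passed only without KO replicate 4 (adjusted p = 0.0285), where 1.2% of all genes passed as lower against 0.258% with all hearts. A single probeset reads Cdkn1c, so no second one can be set beside it.

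Cdkn1a encodes p21, an inhibitor induced by p53 and by stress, and it had no such order. Its signals were 3011, 2119, 2740 and 2966 in WT and 3251, 2844, 2224 and 1560 in KO hearts, with KO replicate 1 the highest and KO replicate 4 the lowest of all 8. Without KO replicate 4 its log2 fold change was 0.03, against -0.17 with all hearts. Cdkn1b, which encodes p27, was 2072 ± 348 in WT and 1739 ± 260 in KO hearts (SD, n = 4; log2 fold change -0.25, 95% interval -0.64 to 0.14), and its second, dimmer probeset had a log2 fold change of -0.59 (exact permutation p = 0.114).

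The G1/S transcription factors varied widely among hearts of 1 genotype. E2f1, an activator of replication genes, had 97.0, 133, 16.5 and 178 in WT and 92.8, 82.6, 63.6 and 146 in KO hearts. Its value in WT replicate 3 was near background. Myc, a growth factor-induced regulator of cell growth, had 91.4, 169, 116 and 213 in WT and 347, 139, 82.2 and 120 in KO hearts. Only KO replicate 1 lay above the WT hearts, and the log2 fold change of Myc was 0.08 with a 95% interval of -1.04 to 1.20.

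The S phase genes hold the 6 subunits of the MCM helicase that unwinds DNA at replication forks, the sliding clamp Pcna, and enzymes that make DNA precursors. Mcm2 had signals of 500, 569, 630 and 441 in WT and 260, 317, 397 and 274 in KO replicates 1 to 4. All KO hearts lay below all WT hearts (log2 fold change -0.78, SE 0.18, limma adjusted p = 0.336 by the common-variance fit and 0.093 by the trended fit). The second Mcm2 probeset did not show this: it had 213, 229, 184 and 229 in WT and 263, 212, 167 and 283 in KO hearts, with a log2 fold change of 0.09 (SE 0.19, exact permutation p = 0.657). The brighter of the pair carries the suffix that Affymetrix gives to probesets matching more than 1 transcript, so the level of Mcm2 itself is uncertain.

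The partners of Mcm2 in the helicase did not share its separation. Mcm7 had 1039, 1037, 874 and 890 in WT and 739, 652, 651 and 993 in KO hearts, where KO replicate 4 lay among the WT hearts (log2 fold change -0.36, 95% interval -0.75 to 0.03). Mcm3, Mcm4, Mcm5 and Mcm6 had log2 fold changes of -0.05, -0.21, -0.25 and -0.27 with 95% intervals that include 0. The value of Mcm3 depends on the probeset, and one with a mean signal of 62.1 and no mark for cross-hybridisation had -1.91 (exact permutation p = 0.229). Mcm6 had its highest signal of all in KO replicate 4 (407) and its lowest in KO replicate 3 (170).

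Pcna was the steadiest of the replication genes. Its signals were 3276, 3133, 2871 and 2995 in WT and 3378, 2762, 3102 and 3187 in KO hearts, and the 95% interval of its log2 fold change, -0.24 to 0.27, leaves out any change as large as that of Cdkn1c. The subunits of ribonucleotide reductase, the enzyme that makes deoxynucleotides, were 475 ± 56.5 in WT and 416 ± 55.2 in KO hearts for Rrm1 and 293 ± 84.4 and 263 ± 94.4 for Rrm2 (SD, n = 4). The difference was about as large as the SD of a group for Rrm1 and smaller than it for Rrm2. Tyms lay between 9.67 and 39.3 in WT and between 4.97 and 28.1 in KO hearts, near background throughout.

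**Figure D3:**
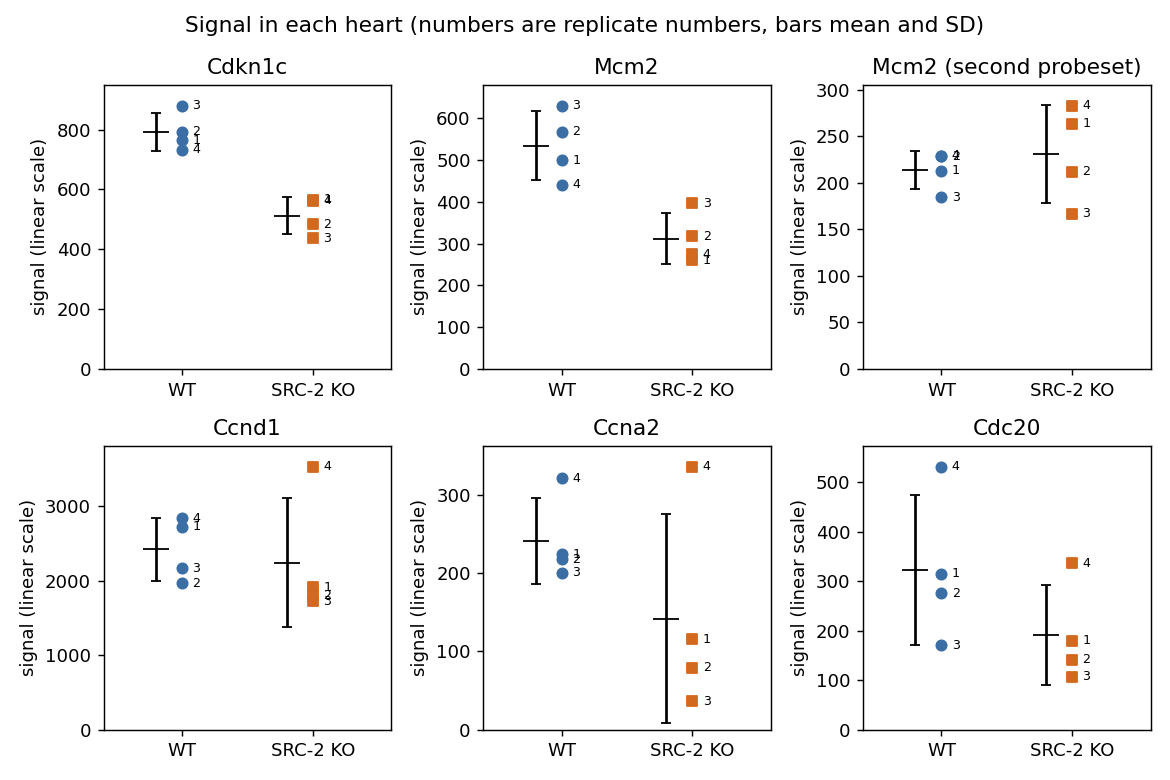
Signal on the linear scale in each WT (circles) and KO (squares) heart for Cdkn1c, both probesets of Mcm2, Ccnd1, Ccna2 and Cdc20, with replicate numbers beside the points and the mean and SD as bars. Cdkn1c and the brighter Mcm2 probeset separate the genotypes, the second Mcm2 probeset does not, and KO replicate 4 is the highest KO heart for Ccnd1, Ccna2 and Cdc20.

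The G2 and M phase genes had the lowest median fold change of the 5 role groups. Ccna2, the cyclin of S and G2 phase, had 224, 218, 201 and 321 in WT and 115, 78.7, 36.0 and 336 in KO hearts. Ccnb2, a B cyclin of mitosis, had 195, 122, 101 and 224 in WT and 83.9, 61.6, 27.3 and 157 in KO hearts. For both genes KO replicates 1 to 3 lay below every WT heart and KO replicate 4 lay within or above the WT range. Their log2 fold changes were -1.21 (SE 0.63) and -1.15 (SE 0.54), and limma gave adjusted p = 0.559 and 0.528 by the common-variance fit and 0.363 and 0.368 by the trended fit.

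The mitotic kinase Cdk1, to which these cyclins bind, had 140, 170, 79.0 and 246 in WT and 97.3, 92.6, 8.27 and 263 in KO hearts. Mki67, which encodes the Ki-67 protein that coats mitotic chromosomes and marks cycling cells, had 288, 285, 80.2 and 449 in WT and 152, 107, 80.2 and 321 in KO hearts. In both genes WT replicate 3 was the lowest WT heart, and it lay within the KO range for Cdk1 and level with the lowest KO heart for Mki67. Top2a, the topoisomerase that untangles sister chromatids, had 306, 329, 173 and 331 in WT and 199, 138, 98.1 and 370 in KO hearts. Cdc20, an activator of the anaphase-promoting complex, had 315, 275, 171 and 531 in WT and 180, 141, 107 and 336 in KO hearts. The same order of hearts recurred here, with WT replicate 3 lowest in WT and KO replicate 4 highest in KO.

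Ube2c, the ubiquitin-conjugating enzyme of the anaphase-promoting complex, was the only one of the 17 with a higher mean log2 signal in KO hearts. It had 267, 371, 141 and 222 in WT and 208, 212, 305 and 330 in KO hearts (log2 fold change 0.13, 95% interval -0.62 to 0.88), and without WT replicate 3 the value was -0.12. Nusap1, a spindle microtubule protein, was the only one whose highest KO heart was not replicate 4, with 109, 83.8, 185 and 155 in KO hearts against 94.9 to 230 in WT.

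The factors and motors of mitosis ran the same way with wide errors. Prc1, a bundler of midzone microtubules, had a log2 fold change of -1.13 (SE 0.85), the motor Kif11 one of -0.41 (SE 0.58), and Foxm1, a transcription factor that turns on G2 and M phase genes, one of -1.23 (SE 0.71). A second probeset of Foxm1, also over a signal of 50, had one of 0.64 (exact permutation p = 0.257). Of the chromosomal passenger and polo kinase genes, Aurkb had -0.89 (SE 0.76), Birc5 -1.56 (SE 1.16), Plk1 -0.21 (SE 0.76) and Aurka, a centrosome kinase, -0.50 (SE 0.63). Several hearts of these genes lay near background, among them KO replicate 1 at 7.45 for Aurkb and 2.74 for Birc5 and WT replicate 3 at 13.0 for Plk1. The other probeset of Aurkb, with a mean signal of 39.3, had a log2 fold change of 1.44 (exact permutation p = 0.086). Both Aurkb probesets are marked for cross-hybridisation, so the direction of Aurkb is uncertain. The spindle checkpoint kinases Bub1 and Bub1b had -2.70 (SE 1.34) and -0.74 (SE 0.63). The value of Bub1 came from signals of 1.28 to 2.94 in KO replicates 1 to 3 and was -0.13 with signals under 50 set to 50 in every heart, so its size is uncertain.

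Heart by heart, the G2 and M phase genes varied together. KO replicate 4 was the highest KO heart in 16 of the 17 genes, against 28.3% of all genes, and lay above the WT mean in 14 of them. WT replicate 3 was the lowest WT heart in 13 of the 17, against 24.1% of all genes. Their summed signal was 2848, 2770, 1636 and 3660 in WT replicates 1 to 4 and 1364, 1358, 1210 and 3488 in KO replicates 1 to 4. The median difference of the 17 genes from their WT means, in log2 units, was 0.18, 0.21, -0.74 and 0.56 in WT and -0.93, -1.03, -1.47 and 0.50 in KO hearts. Without KO replicate 4 the median log2 fold change of the 17 genes was -1.22 instead of -0.77, still with no gene past an adjusted p of 0.05 in the common-variance or the trended fit, and without WT replicate 3 it was -0.95. It was smaller in size without KO replicate 3 (-0.56), with the mean of all probesets (-0.45, 14 of 17 lower) and with signals under 50 set to 50 (-0.49). The 4 hearts of each genotype thus did not form 1 level for these genes, and the genotypes overlapped.

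In the S phase genes KO replicate 4 was the highest KO heart in 6 of 10 genes, with a median difference from the WT means of 0.19 against -0.48, -0.27 and -0.36 in KO replicates 1 to 3. In the G1 cyclins and kinases it was the highest in 3 of 7, with 0.20 against -0.33, 0.13 and -0.02.

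**Figure D4:**
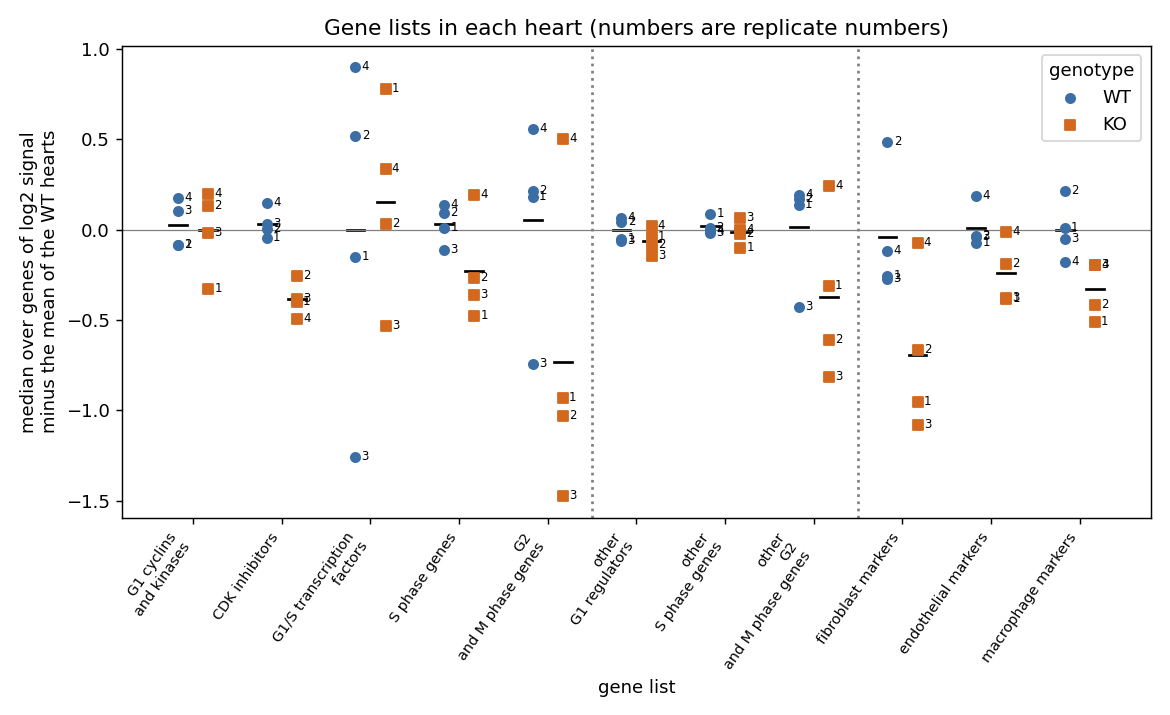
Median over the genes of a list of log2 signal minus the WT mean, in each WT (circles) and KO (squares) heart, with replicate numbers beside the points and black bars at the mean of the 4 hearts. In the G2 and M phase genes KO replicate 4 lies at 0.50 with the WT hearts and WT replicate 3 at -0.74. KO replicate 4 is also the highest KO heart in the G1 cyclins and kinases, the S phase genes and the other G1 regulators. The same holds for the other G2 and M phase genes, the fibroblast markers and the endothelial markers. KO replicate 4 is not the highest in the CDK inhibitors, the G1/S transcription factors, the other S phase genes or the macrophage markers.

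Markers of fibroblasts, endothelial cells and macrophages had lower values in KO hearts alongside these genes, with median log2 fold changes of -0.72, -0.20 and -0.34. Some single markers were close to level, such as endothelial Vwf (-0.002) and fibroblast Dcn (-0.07). All 8 fibroblast markers had lower mean log2 signals in KO hearts, KO replicate 4 was the highest KO heart in 6 of them and WT replicate 3 the lowest WT heart in 3. Their summed signal was 85107, 135347, 82047 and 83576 in WT and 60114, 61877, 54870 and 85658 in KO replicates 1 to 4. All 9 endothelial markers were lower as well, with sums of 15826 to 19310 in WT and of 14214, 14516, 12884 and 17463 in KO replicates 1 to 4, and KO replicate 4 was the highest KO heart in 7 of them. All 10 macrophage markers were lower, with sums between 19750 and 25531 in WT hearts and between 15550 and 19068 in KO, and KO replicate 4 was the highest KO heart in 3. The defining markers Col1a1, Pecam1 and Adgre1 were well over background in all 8 hearts, between 595 and 1561, 420 and 937, and 545 and 1056. All 9 cardiomyocyte markers ran the other way (median log2 fold change 0.17), and 0 of the fibroblast, endothelial, macrophage and cardiomyocyte markers passed in either fit. WT replicate 3 was the lowest WT heart in 1 of the endothelial and 0 of the macrophage markers. The 7 atrial myocyte markers were each lower on average in KO hearts, with a median of -1.64 on the log2 scale, and Stard10 and Nr2f2 fell by the trended limma fit (adjusted p = 0.0188 and 0.0367), although KO replicate 4 was the highest KO heart in 0 of them. Other lists ran otherwise: 3 of 3 erythroid markers had higher values (median 0.59), Hba-a1 among them with a mean signal of 11.7, near background. The erythroid sums were 2859, 1130, 4650 and 1150 in KO replicates 1 to 4, so KO replicates 2 and 4 lay within the WT range of 740 to 1584. Of the smooth muscle and pericyte markers, 6 of 7 had lower values, while Acta2 rose by the trended limma fit (log2 fold change 0.74, adjusted p = 0.0422). KO replicate 4 was the highest KO heart in 6 of these 7 markers and lay above the WT mean in 5. Their median differences from the WT means were -0.43, 0.09, -0.73 and 0.67 in KO replicates 1 to 4. Of the 6 lymphocyte markers measured, 3 were higher and 3 lower, and 2 had a mean signal over 50. The part of these cells in the values of the cell cycle genes was not tested.

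The probesets other than the brightest gave a partial check. The 39 genes have 94 probesets, and 10 genes have a single one. Of the 55 others, 29 had a mean signal over 50, and 24 of these had a fold change of the same sign as the brightest. Within the G2 and M phase genes further probesets over 50 of Ccna2 (-1.53), Prc1 (-1.47), Kif11 (-1.90) and Cdc20 (-0.34) had the sign of the brightest and KO replicate 4 as their highest KO heart, and that of Foxm1 had the opposite sign.

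The promoters were read because the G2 and M phase genes varied together across hearts and are known to share promoter elements. RefSeq sequences of the GRCm38.p6 build, from 250 bases before to 30 after the start of transcription, were at hand for 31 of the 40 genes, and Ccnd1, Ccnd2, Ccne2, Cdkn1c, Myc, Mcm4, Ccna2, Aurkb and Foxm1 had no entry. They were searched on both strands for the CCAAT box (CCAAT), the CHR (TTTGAA, or its variant TTCGAA) and a site of the E2F type (TTGGCGC, or else TTCCCGC, or else TTCGCGC, or else TTGCCGC), where a CCAAT box read on the other strand can share bases with TTGGCGC. Below, capitals mark the matches to CCAAT and CHR on either strand, the promoters of Ccnb2, Cdc20 and Top2a being shown as those of G2 and M phase genes described above and that of Mcm2 as the S phase gene whose hearts parted.
Ccnb2, chr9:70421525-70421804, minus strand: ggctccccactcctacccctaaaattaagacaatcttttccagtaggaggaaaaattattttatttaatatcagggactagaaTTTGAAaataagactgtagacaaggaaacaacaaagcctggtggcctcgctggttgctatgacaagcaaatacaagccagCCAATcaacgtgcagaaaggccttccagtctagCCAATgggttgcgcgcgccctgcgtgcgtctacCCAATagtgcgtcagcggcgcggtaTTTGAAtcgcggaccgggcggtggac
Cdc20, chr4:118437314-118437593, minus strand: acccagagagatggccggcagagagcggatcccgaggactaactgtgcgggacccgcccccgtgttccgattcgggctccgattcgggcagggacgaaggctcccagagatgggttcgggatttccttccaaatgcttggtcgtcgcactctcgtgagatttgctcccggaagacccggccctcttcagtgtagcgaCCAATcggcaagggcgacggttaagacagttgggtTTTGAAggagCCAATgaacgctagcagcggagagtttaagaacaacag
Top2a, chr11:99024160-99024439, minus strand: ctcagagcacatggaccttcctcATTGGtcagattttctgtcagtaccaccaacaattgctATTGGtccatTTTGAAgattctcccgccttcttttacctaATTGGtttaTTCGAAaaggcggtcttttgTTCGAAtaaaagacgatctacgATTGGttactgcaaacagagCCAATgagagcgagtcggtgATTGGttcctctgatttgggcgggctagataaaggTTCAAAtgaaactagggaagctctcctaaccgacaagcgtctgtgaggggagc
Mcm2, chr6:88898751-88899030, minus strand: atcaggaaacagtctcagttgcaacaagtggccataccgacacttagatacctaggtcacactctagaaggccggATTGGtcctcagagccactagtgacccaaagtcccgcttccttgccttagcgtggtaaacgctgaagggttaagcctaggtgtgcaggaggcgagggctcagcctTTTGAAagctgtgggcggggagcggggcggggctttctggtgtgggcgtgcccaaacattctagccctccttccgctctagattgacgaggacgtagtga

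All 4 hold both a CCAAT box and a CHR, and Top2a holds 6 and 4 matches. The 15 G2 and M phase promoters include that of Ccnb1, which was not measured. Of the 15, 13 hold a CCAAT box, 10 a CHR and the same 10 both, which is 66.7% with both. Over the 14452 promoters of all measured genes, 37.3% hold a CCAAT box, 14.4% a CHR and 5.66% both. The E2F letters stood in 3 of the 15 G2 and M phase promoters and in 6 of the 9 S phase promoters, against 13.1% of all. The S phase promoters of Mcm2, Mcm3, Mcm5, Mcm6, Mcm7, Pcna, Rrm1 and Rrm2 hold a CCAAT box, 2 of them with a CHR. None of the 4 G1 cyclin and kinase promoters holds a CHR. A match is a run of letters in the reference sequence and says nothing of the binding of a factor in these hearts. Ube2c, whose fold change was above 0, holds 6 CCAAT boxes and 1 CHR, while Nusap1 and Birc5, whose fold changes were below 0, hold neither.

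Other genes of the cycle were read from lists of 128 genes written apart from the 40, of which 125 were measured. These lists too were chosen with earlier results of these data known, so they are not an independent check. None of the 125 passed in either fit, and 77 of them (61.6%) had a lower mean log2 signal in KO hearts, against 53.0% of all genes. The KO hearts lay wholly below the WT hearts for 6 of the 125 and wholly above for 2, against 3.72% and 3.1% of all genes. The median log2 fold change of the 125 was -0.20. The other G2 and M phase genes number 48, of which 77.1% had a mean signal over 50. Of these 48 genes, 37 were lower (median -0.45). KO replicate 4 was the highest KO heart in 29 of them, against 28.3% of all genes. WT replicate 3 was the lowest WT heart in 30 of them, against 24.1% of all genes. The median differences of the 48 genes from the WT means were -0.31, -0.61, -0.81 and 0.24 in KO replicates 1 to 4 and 0.14, 0.17, -0.43 and 0.19 in WT. Their summed signal had another order, with 12800, 19604, 20576 and 21808 in WT and 25993, 23525, 21230 and 12556 in KO replicates 1 to 4, and it was largely that of 1 gene, Pttg1, which encodes securin and is named here after its values were seen. Pttg1 had 1698, 8968, 11782 and 10764 in WT and 17070, 15308, 13048 and 1238 in KO hearts, so WT replicate 1 and KO replicate 4 were far below the rest. Summed over the other 47 genes, the signal was 11103, 10636, 8795 and 11044 in WT and 8923, 8216, 8182 and 11318 in KO hearts. Cenpa, the histone variant of centromeres, had 1139, 934, 1241 and 990 in WT and 741, 678, 823 and 707 in KO hearts, with no overlap (log2 fold change -0.54, SE 0.13, limma adjusted p = 0.339 by the common-variance fit and 0.0855 by the trended fit). Smc4, a condensin subunit, and Spc25, a kinetochore protein, had log2 fold changes of -0.29 and -0.42. Cdca8, a chromosomal passenger protein, had 10.2, 4.19, 35.2 and 166 in KO and 85.1 to 199 in WT hearts, with KO replicate 4 again among the WT hearts.

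The other G1 and S phase genes showed no such shift. Of 39 other G1 regulators 20 were lower (median -0.01), and of 38 other S phase genes 20 were lower (median -0.03). Btg1, an antiproliferative factor, lay between 3262 and 3771 in WT and between 2208 and 3071 in KO hearts (log2 fold change -0.40, SE 0.13). E2f5, a repressor E2F, had a log2 fold change of -0.50, the D cyclin partner Cdk6 one of -0.49 and Ccng2, a cyclin tied to cell cycle arrest, one of -0.56. Gmnn, which encodes geminin, the inhibitor of origin licensing, lay between 1970 and 2706 in WT and between 2878 and 3165 in KO hearts (log2 fold change 0.36, SE 0.12). The chromatin remodeller Hells had a log2 fold change of -1.11, Gins3 of the replicative helicase one of -0.89 and Dbf4, the activator of the origin-firing kinase Cdc7, one of -0.76. These 8 genes had limma adjusted p between 0.352 and 0.499 by the common-variance fit.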

How the data were processed

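RNA of 4 WT and 4 SRC-2 KO hearts was labelled with a 3' IVT kit and hybridised to 1 array each. The deposited table holds 1 signal intensity for each of 45101 probesets, which the authors' processing notes link to Affymetrix Expression Console, Partek and RMA. The values are not log2 values. They are linear intensities with the same mean on each array after trimming 2% of the probesets at each end, so whether RMA gave them is uncertain. Their log2 was taken without a floor or further scaling. Of 35890 annotated probesets, 34945 with 1 gene were kept, and the brightest by mean over 8 arrays stood for each of 18193 genes. The genotypes were compared by limma 3.58.1 (R 4.3.3) with eBayes, with a common prior variance or one trended on signal, two-sided and with Benjamini-Hochberg adjustment over all genes. The script was tested on simulated data. The members and all gene lists were chosen with earlier results of these data known. Genes named are the 40 members, Ncoa2, the defining markers and the 4 genes of smallest p in each of the other cell cycle lists. Alternatives were other variance models, array weights, a replicate block, other probeset rules and signal limits, other normalizations and leave-one-out fits. Single probesets were compared by exact permutation over hearts. Promoter sequences and names came from RefSeq tables of GRCm38.p6. The number of arrays limits the precision. Figures were drawn with matplotlib 3.10.9 in Python 3.11.15.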

Additional observations from a re-analysis of the deposited data

Results flagged for a closer look

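In 5 of 88 groups of 4 hearts of a cell cycle gene or list, 1 heart lay far from the nearest of the others by Dixon's ratio. The ratio is the gap divided by the range of the group, both on the log2 scale, and chance gives about 1 in 20. The ratio was 0.859 for Ccnd1 in KO hearts, where KO replicate 4 was high at a signal of 3528. It was 0.892 for Ccne2, 0.831 for Rrm2 and 0.88 for Top2a in WT hearts, where WT replicate 3 was low at 171, 169 and 173. It was 0.837 for Mcm4 in KO hearts, where KO replicate 1 was high at 497. The cause of these hearts' positions was not tested.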

How the results depend on the processing

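In the common-variance fit 0 of the 39 cell cycle genes passed under any alternative run. Their values changed sign in 38 of 777 alternative values, none of them past the threshold, and 18 of the 39 genes had such a change. The 777 include fits that alter only the variance model, the block or the set of genes, where a fold change cannot change sign. In the trended fit the count of lower members was 0 to 1 over the leave-one-out fits, the 1 being Cdkn1c without KO replicate 4.

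Over all genes, 1 was called higher and 3 lower. The trended fit called 22 and 47. The count of higher genes was 0 with each gene's own variance, the replicate block, the mean of all probesets, the limit of 50, the floor of 50 and quantile normalization, and 0 to 1 over the leave-one-out fits. The count of lower genes was 1 with each gene's own variance, 5 with array weights, 0 with the replicate block, 1 with the mean of all probesets, and 1 to 5 over the leave-one-out fits, 5 being without KO replicate 1. In alternatives of the trended fit chosen after seeing the data, leave-one-out counts were 2 to 104 higher and 3 to 218 lower, the largest without KO replicate 4, and the floor of 50 gave 0 and 2. The replicate block also changed no call among the 39 genes, and the correlations of same-numbered hearts, -0.08 to 0.12, do not pair the arrays. The causes were not tested.

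The median log2 fold change of the G2 and M phase genes was -0.45 with the mean of all probesets, -0.49 with the floor of 50 and -1.22 to -0.56 over the leave-one-out fits. That of the CDK inhibitors was -0.42 with the mean of all probesets and -0.35 to -0.18 over the leave-one-out fits. With the mean of all probesets the log2 fold change was 0.10 for Ccnd3, -0.57 for Cdk2, -0.31 for E2f1, 0.067 for Rrm2, 0.27 for Aurkb and 0.19 for Foxm1. Without probesets marked for cross-hybridisation it was 0.61 for Ccne1, 0.088 for Mcm2 and 0.017 for Mcm5. These are changes of sign, and without a change of sign the same setting gave -1.91 for Mcm3, -0.15 for Mcm7 and -0.34 for Cdc20. Median centring gave 0.027 for Ccnd3, 0.053 for Cdk4 and 0.014 for Mcm3, quantile normalization 0.027 for Cdk4 and 0.043 for Mcm3, array weights 0.025 for Cdk4 and -0.0025 for Myc, and the floor of 50 -0.17 for E2f1. Over the leave-one-out fits the ranges were -0.18 to 0.055 for Ccnd3, -1.32 to 0.011 for Ccne1, -0.13 to 0.10 for Cdk4, -0.32 to 0.030 for Cdkn1a, -0.52 to 0.62 for E2f1, -0.33 to 0.36 for Myc, -0.20 to 0.11 for Mcm3, -0.025 to 0.071 for Pcna, -0.88 to 0.080 for Aurka, -0.95 to 0.17 for Plk1, -0.12 to 0.35 for Ube2c and -0.77 to 0.047 for Kif11. Values of genes near a signal of 50 are limited by background.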
